A study of Mus musculus with 6 samples.

Results

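The cytosolic ribosomal protein genes are described here across the cell types of 2 single-cell RNA sequencing (scRNA-seq) preparations of mouse brain. Members were taken by symbol, as every gene listed in both preparations under Rps or Rpl with a number, at most one of the letters a, x, y or l after it and at most 1 further digit, together with Rpsa, Rplp0, Rplp1 and Rplp2, so that pseudogenes named -ps and the Rps6k kinases are not among them. This gave 83 genes of the 27514 listed in both preparations (31053 genes for the cortex and 27998 for the hippocampus), of which 32 encode proteins of the small subunit and 51 encode proteins of the large subunit, its stalk included. Of the 83, 82 had at least 1 unique molecular identifier (UMI), the tag that counts 1 captured RNA molecule, and Rpl10l had none in either preparation.

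The mice were wild-type C57Bl/6J females. Cerebral cortices taken at 3 weeks of age made prep 1, called cortex here, and hippocampi taken at 5 weeks made prep 3, called hippocampus. All mice were perfused with cold buffer, white matter was removed, and the tissue was digested with dispase II, papain and DNase I and freed of myelin in Percoll. Cells of 3 mice were pooled into 1 suspension per preparation and loaded 3 times (technical replicates) for 10x Chromium 3′ sequencing, giving 6 libraries. There is thus 1 biological sample per group, no p-value was computed, every SD is taken over the 3 technical replicates, and intervals cover counting error only. Region, age, preparation and the gene annotation behind the counts change together between the preparations and cannot be told apart.

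A ribosome is built from a small subunit, which reads the mRNA, and a large subunit, which joins amino acids, and each holds ribosomal RNA and one copy of most ribosomal proteins. The acidic P proteins (Rplp1, Rplp2) are the exception: they sit in pairs on Rplp0 and form the stalk that recruits elongation factors. Ribosomal protein mRNAs are among the most abundant of a cell, most begin with a run of pyrimidines at the 5′ end (the 5′ TOP motif) through which growth signals control their translation, and a few genes have a paralogue whose protein can take the same place in the ribosome.

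The start-site sequences of members on which the class and region results turn are shown first, because a pyrimidine run at the start is what this gene family is known for. Each line gives 30 bases of RefSeq promoter sequence (GRCm38.p6), from 15 before to 15 after the annotated start, 5′ to 3′ on the strand of the gene, and capitals mark every CTTTC and CTTCC, overlapping ones included. Of the 63 members with an entry, 25 hold either in this window and 38 hold neither, so lines with capitals are more frequent here than in the family. Rps27l, shown with the more upstream of its 2 annotated starts, holds neither in this window.
Rpl38, large subunit, chr11:114668565-114668594, plus strand: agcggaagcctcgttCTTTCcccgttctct
Rps27, small subunit, chr3:90213634-90213663, minus strand: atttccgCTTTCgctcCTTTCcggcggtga
Rps27l, paralogue of Rps27, chr9:66946071-66946100, plus strand: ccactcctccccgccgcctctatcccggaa
Rpl22l1, paralogue of Rpl22, chr3:28805493-28805522, plus strand: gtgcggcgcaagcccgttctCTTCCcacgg
Rps26, small subunit, chr10:128626492-128626521, minus strand: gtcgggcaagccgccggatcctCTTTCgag
Rpl31, large subunit, chr1:39367836-39367865, plus strand: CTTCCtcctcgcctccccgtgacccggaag
Rpl13a, large subunit, chr7:45128731-45128760, minus strand: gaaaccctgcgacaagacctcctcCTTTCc
Rpl15, large subunit, chr14:18270972-18271001, minus strand: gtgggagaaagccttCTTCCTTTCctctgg
Rps2, small subunit, chr17:24720048-24720077, plus strand: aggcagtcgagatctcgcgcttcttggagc
Rpsa, small subunit, chr9:120127751-120127780, plus strand: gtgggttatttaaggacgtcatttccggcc
Rps6, small subunit, chr4:86857353-86857382, minus strand: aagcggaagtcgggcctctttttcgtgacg
Rpl41, large subunit, chr10:128549154-128549183, minus strand: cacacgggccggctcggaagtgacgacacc

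A promoter entry was matched for 63 of the 83 members. In the window from 15 bases before to 50 bases after the start, on the strand of the gene, CTTTC was present in 29 of the 63 (46%), against 9.51% of all 27025 genes with an entry. CTTCC was present in 24 (38.1%, against 15%) and CTTTTC in 9 (14.3%, against 2.63%). Over the 250 bases before to 50 after the start and on both strands, the ETS-family motif CCGGAAG was present in 26 members (41.3%, against 9.93%) and ATGGCGG, the core that YY1 is known to bind, in 11 (17.5%, against 4.69%). The letters TATAAA occurred in 7 (11.1%, against 15.7%). CTTCC overlaps the reverse complement of CCGGAAG, so these counts are not independent of each other. A match describes the letters in the window and is neither a site nor a cause, and no match says only that these letters are not there.

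The 6 libraries held 39662203 to 50024850 UMIs over 4894 to 6121 barcodes. The filter asked for 250 to 6000 genes and less than 25% of UMIs from mitochondrial genes, and kept 13320 of 17937 in the cortex and 14210 of 15336 in the hippocampus. These cells were grouped by clustering made without the member genes, so that ribosomal protein levels did not form the classes. Clusters were named from marker genes, and a class is given where it held at least 50 cells of a preparation. Clusters left unnamed held 840 cells of the cortex and 709 of the hippocampus and form no class. In the cortex 3862 barcodes had fewer than 250 genes, with haemoglobin at 92.3% of their UMIs, against 353 such barcodes in the hippocampus. Some barcodes occurred in more than 1 library of a preparation, 71 of the cells kept in the cortex and 749 in the hippocampus, and in the hippocampus they made up 67.5% of epithelial-like, 46.9% of monocyte-like and 21.4% of ependymal-like cells.

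Ribosomal protein UMIs made up 9.36% ± 0.256 of all UMIs of the cells kept in the cortex and 7.50% ± 0.127 in the hippocampus. In the barcodes with fewer than 250 genes the share was 0.288% ± 0.0624 and 0.523% ± 0.0641. In barcodes left out for mitochondrial UMIs it was 2.62% and 5.64%, and in those with more than 6000 genes 11.5% and 6.12%. Barcodes rich in haemoglobin or mitochondrial RNA thus held a smaller share than the cells kept, in both preparations.

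The share differed more between cell classes than between replicates. Lymphoid and monocyte-like cells were highest in the cortex and monocyte-like cells in the hippocampus, and astrocyte-like cells were lowest in the hippocampus and next to erythroid-like cells the lowest in the cortex. In the cortex the T/NK-like cells had 33.0%, 29.3% and 24.4% in the 3 replicates, a mean of 28.9% ± 4.29 over 50 cells. The cluster behind this name was led by the T and NK cell genes Ccl5, Ms4a4b, Nkg7 and Cd3g and also by the B cell genes Ly6d and Cd79a. When the cortex was clustered alone, 27 cells formed a B-like cluster led by Igkc, Ly6d and Iglc1. A further 22 formed a T/NK-like one led by Ccl5, Gzma and Cd3g. How many of the 50 cells lie in each was not counted, so values under this name are those of mixed lymphoid cells. The replicates of this class lay above those of every other class in both preparations.

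Monocyte-like cells, whose leading genes included Cd74, Plac8 and Ccr2, had 20.1%, 18.7% and 18.6% in the cortex (110 cells) and 23.0%, 19.1% and 18.3% in the hippocampus (175 cells). In the hippocampus their median depth was 669 UMIs, and the share was 19.7% without the shared barcodes. The median share per cell was 16.0% in the cortex, at a median depth of 7719 UMIs, and 24.97% in the hippocampus.

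The class held different cells in the preparations, so its values are given side by side and not compared. Cd74, of antigen presentation, had a UMI in 39.1% of the cells of the cortex and 25.1% of those of the hippocampus, whereas the granule genes Elane and Mpo of immature granulocytes had a UMI in 0.909% and 2.73% against 19.4% and 24.0%. When the hippocampus was clustered alone, 122 of the 175 cells fell into a cluster led by S100a8, Nkg7 and Ptprcap that was left unnamed, with 24.6% at a median depth of 588.5 UMIs. A further 35 joined a cluster led by the macrophage genes Pf4, Ms4a7 and Mrc1, with 23.6% at 12273 UMIs. In the cortex clustered alone, 81 of the 110 cells joined a cluster led by Cd74, Pf4 and Lyz2 (19.8%), which was named macrophage-like. Another 28 joined a cluster named neuron-like and led by Igfbpl1, the cell cycle gene Top2a and Tubb3 (18.3%, at 18098.5 UMIs). That cluster also held 68 of the 72 neuron-like cells of the cortex, which had 14.9%.

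Macrophage-like cells had 15.2%, 13.7% and 17.7% in the cortex and 10.3%, 10.4% and 9.90% in the hippocampus. Neuron-like cells, led by genes of young neurons such as Dcx and Sox11, had 15.7%, 13.9% and 15.2% in the cortex (72 cells) and 12.9%, 12.6% and 12.96% in the hippocampus (504 cells). In the cortex these classes were not apart from each other beyond their spread, whereas in the hippocampus every neuron-like replicate lay above every macrophage-like one.

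The neuron-like class joined 3 clusters. A cluster led by Igfbpl1, Neurod1 and Sox11 gave 29 of the 72 cells of the cortex (15.4%) and 375 of the 504 of the hippocampus (12.9%), and one led by the interneuron genes Dlx6os1, Sp9 and Dlx1 gave 43 (14.4%) and 48 (12.9%). The third, led by Snhg11 and by Reln, which Cajal-Retzius cells secrete, gave 81 cells of the hippocampus (12.1%), and Reln had no UMI in the neuron-like cells of the cortex. In both clusters found in each preparation the share was lower in the hippocampus. The first cluster is called Igfbpl1-led below. Neurod1 had a UMI in 11.1% of the neuron-like cells of the cortex and 60.1% of those of the hippocampus. The cells of this cluster thus need not be alike in the preparations.

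Endothelial-like cells had 12.04%, 11.6% and 11.5% in the cortex and 9.34%, 9.21% and 9.26% in the hippocampus. Microglia-like cells had 11.1%, 10.6% and 10.5% in the cortex and 9.24%, 9.20% and 9.09% in the hippocampus. The ratio of the endothelial-like to the microglia-like share was 1.09 ± 0.0107 in the cortex and 1.01 ± 0.00855 in the hippocampus. The replicates of these classes did not overlap in the cortex and overlapped in the hippocampus, where the ratio lay between 0.991 and 1.03 over the alternatives tried and so on either side of 1.

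Lower shares were found in the mural and glial classes. Vascular smooth muscle cell (VSMC)-like cells had 9.65% ± 0.143 and 8.65% ± 0.238, oligodendrocyte precursor cell (OPC)-like cells 8.72% ± 0.895 and 7.43% ± 0.0272, and pericyte-like cells 6.90% ± 0.234 and 4.99% ± 0.222. Fibroblast-like cells had 9.28% ± 1.03 and 5.71% ± 1.13. Each of these classes was lower in the hippocampus, and their replicates did not overlap between the preparations.

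The OPC-like class was led by Gpr17, Bmp4, Neu4 and Enpp6, genes of precursors that have begun to differentiate. Gpr17 had a UMI in 81.5% and 81.2% of its cells, Enpp6 in 68.5% and 55.2%, and Pdgfra, the defining gene of precursors that still divide, in 18.5% and 30.7%. When the hippocampus was clustered alone, 181 of the 261 cells fell into a cluster led by Tnr, Gpr17 and Bmp4, and 77 into one led by Pdgfra, Lhfpl3 and C1ql1. Their ribosomal protein shares were 7.45% and 7.34%, at median depths of 20015 and 8860 UMIs.

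Oligodendrocyte-like cells of the hippocampus were among the lowest, with 4.10%, 3.98% and 4.05% at a median depth of 21261.5 UMIs. Astrocyte-like cells had 3.32%, 3.38% and 3.28% in the cortex and 2.96%, 2.97% and 3.12% in the hippocampus. Erythroid-like cells of the cortex had 2.58% ± 0.702 with haemoglobin at 65.5% of their UMIs, and 8.06% when mitochondrial and haemoglobin UMIs were left out of the total. Ependymal-like cells of the hippocampus had 7.20% ± 0.188, and 7.20% without the shared barcodes.

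Epithelial-like cells of the hippocampus, named from genes of the choroid plexus, had 6.40%, 7.81% and 5.78% at a median depth of 875 UMIs. From the shallowest to the deepest of 4 groups of equal size by total UMIs, the share was 4.65%, 4.42%, 4.91% and 7.09%, and the median share per cell was 4.67%, so the deepest cells carried the pooled value. It was 7.10% without the shared barcodes and 9.54% at a mitochondrial limit of 10%, a move larger than the replicate SD of 1.04. The part of Ttr and of shallow, shared and mitochondria-rich barcodes in this value was not tested. When the hippocampus was clustered alone, 621 of the 824 cells fell into a shallow cluster, with 4.49% at a median depth of 765 UMIs. A further 202 fell into a deeper cluster, with 7.06% at 7007.5 UMIs.

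**Figure D1:**
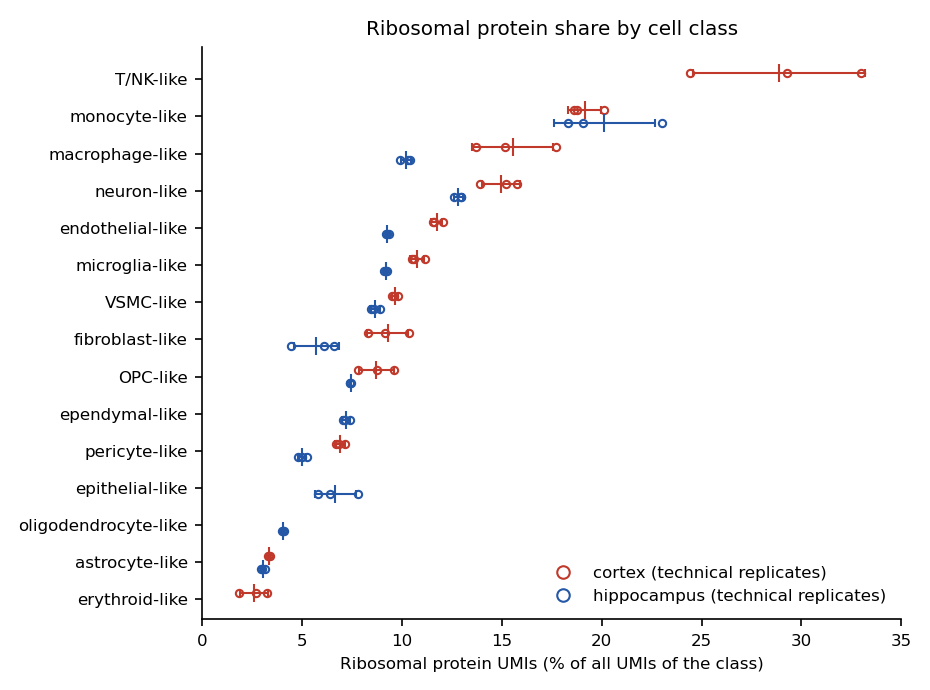
Ribosomal protein UMIs as a percent of all UMIs (x axis) in each cell class (y axis), with an open circle for each technical replicate, a vertical bar for their mean and whiskers for 1 SD, red for the cortex and blue for the hippocampus. T/NK-like cells sit at 24.4% to 33.0%, monocyte-like cells near 20%, and astrocyte-like cells near 3% in both preparations.

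Cells within a class were spread over a wider range than replicates were. In microglia-like cells of the cortex the 10th percentile, median and 90th percentile of the share per cell were 7.40%, 10.1% and 14.3%, and in those of the hippocampus 5.79%, 8.46% and 12.6%. Oligodendrocyte-like cells had the narrowest range of the classes, at 3.27%, 4.05% and 5.00%.

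Among the cells named microglia-like, deeper ones had a larger share. When the cells of each replicate were cut into 4 groups of equal size by total UMIs, the share went from 9.83% ± 0.384 in the shallowest group (median 4169 UMIs) over 10.2% and 10.7% to 11.5% ± 0.443 in the deepest (7368 UMIs) in the cortex. In the hippocampus it went from 8.10% ± 0.127 (4992 UMIs) over 8.46% and 9.11% to 10.2% ± 0.0425 (8955 UMIs). The deepest and the shallowest group differed by 1.71 percentage points ± 0.224 and 2.13 percentage points ± 0.0873. The mitochondrial percent moved the same way, from 3.66% to 4.92% in the cortex and from 2.62% to 3.98% in the hippocampus, and its part in the difference was not tested. These groups leave out a shallow unnamed cluster led by Tyrobp, Ccl6 and Cd52. It had 13.4% at a median of 1438 UMIs in the cortex (226 cells) and 14.4% at 1960 UMIs in the hippocampus (238 cells). Both values lie above the deepest microglia-like group. At resolution 0.2 a shallow cluster led by Tyrobp, Cd52 and Aif1 was named microglia-like.

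Endothelial-like cells also had a larger share in deeper groups, from 9.45% ± 0.337 to 12.6% ± 0.332 in the cortex and from 7.77% ± 0.208 to 9.70% ± 0.162 in the hippocampus. Astrocyte-like cells did not follow one direction: from shallow to deep their groups held 3.89%, 3.08%, 2.96% and 3.60% in the cortex and 4.08%, 2.13%, 2.41% and 3.65% in the hippocampus, with the shallowest group highest in both. Oligodendrocyte-like cells went the other way, from 4.30% ± 0.0571 in the shallowest group to 3.78% ± 0.158 in the deepest.

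The clusters inside a class differed as well, and these values are a description of cells that were grouped by other genes. Among microglia-like clusters, the one led by the chemokine genes Ccl3 and Ccl4 and by Fos had 11.99% in the cortex and 10.6% in the hippocampus, with immediate early genes at 1.76% and 1.46% of UMIs. The microglia-like cluster with the lowest share had 9.47% and 7.86%, with immediate early genes at 0.371% and 0.459%. The microglia-like cluster led by Lag3, Tyrobp and Crybb1 had 11.4% and 10.7%, with immediate early genes at 0.451% and 0.634%. The order of these clusters by share was thus not their order by immediate early genes in the hippocampus. In the cortex 121 endothelial-like cells led by Adm and Apln, at a median depth of 15762 UMIs, had 15.7%, against 9.65% in the endothelial-like cluster led by arterial genes such as Gkn3 and Bmx. The shallow astrocyte-like cluster (median 1669 and 1509 UMIs) had 4.61% and 5.58%, against 3.06% and 2.79% in the main one. The part of immediate early genes and depth in these differences was not tested.

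The subunits kept a similar proportion across classes. Small-subunit members held between 42.3% of ribosomal protein UMIs in astrocyte-like and 47.5% in macrophage-like cells of the cortex, and between 41.5% in ependymal-like and 46.4% in monocyte-like cells of the hippocampus. In microglia-like cells they held 45.9% ± 0.849 and 44.7% ± 0.272, and in endothelial-like cells 43.6% ± 0.0207 and 43.1% ± 0.231. Immune classes were thus at the upper end in both preparations.

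Counted over all cells kept, and not divided by transcript length, the most UMIs came from Rps29 (377174 in the cortex and 373603 in the hippocampus), a small zinc-binding protein of the small subunit, which held 4.34% and 4.26% of ribosomal protein UMIs. It was followed by the stalk protein gene Rplp1 (210524 and 243549 UMIs), and Rps24, Rpl13 and Rps21 were also among the 6 members with the most UMIs. The fewest UMIs came from 6 paralogues: Rpl22l1 (25393 and 25028), Rps27l (19912 and 21864), Rpl7l1 (7406 and 9031), Rpl39l (211 and 347), Rpl3l (28 and 16) and Rpl10l (0 and 0). The remaining members lay between these groups.

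The technical replicates of the cortex were not alike for some of the members, and this bears on every value of those genes. Of 80 members with at least 1000 UMIs in all cells kept, 8 differed at least 1.5-fold between the highest and the lowest replicate in CPM (UMIs scaled to the same total in each library), namely Rpl35, Rpl37, Rpl38, Rpl39, Rps21, Rps27, Rps28 and Rps29. Over all genes with as many UMIs 1.38% differed by as much. In microglia-like cells the same 8 of 80 did (all genes 1.3%), in endothelial-like cells 6 of 80 (1.43%) and in astrocyte-like cells 7 of 79 (1.78%). In the hippocampus none of the members differed 1.5-fold in any of these, against 0.445% of all genes over all cells kept, 0.128% in microglia-like, 0.326% in endothelial-like and 0.152% in astrocyte-like cells.

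Rps29 had 8274, 5736 and 4023 CPM in microglia-like cells of the 3 cortex replicates, and 5002, 4948 and 5322 CPM in those of the hippocampus. Rpl38, a small protein of the large subunit known for its role in translating Hox mRNAs, had 1337, 836 and 633 CPM in the cortex and 980.3, 953 and 1006 in the hippocampus. Rps28 had 1044, 556 and 724 CPM in the cortex and 1049, 980 and 915 in the hippocampus. Replicate 1 of the cortex was the highest for each of these genes, and the hippocampus replicates were close together.

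Rpl35, Rpl38, Rps21, Rps27, Rps28 and Rps29 passed the 1.5-fold in each of these 3 classes. Replicate 1 was the highest in 18 of these 18 values, replicate 3 the lowest in 15 and replicate 2 in 3. The principal transcripts of Rps27, Rpl38, Rps28, Rps29 and Rps21 are 345, 367, 387, 390 and 394 bases long, where the median of the members is 803, but those of Rpl39, Rpl37 and Rpl35 are 612, 835 and 946. Across the 80 members the log2 ratio of highest to lowest replicate had a Pearson r of -0.42 and a Spearman rho of -0.31 with log2 transcript length in microglia-like cells of the cortex, a description across genes that share their libraries. In all cells kept, endothelial-like and astrocyte-like cells r was -0.40, -0.40 and -0.32 and rho -0.20, -0.21 and -0.16, and in microglia-like cells the median ratio was 1.10 in shorter and 1.09 in longer members. The part of transcript length in the replicate difference was not tested. The median ratio over the members was 1.09 in the cortex, as over all genes tested (1.09), and 1.03 in the hippocampus (all genes 1.06).

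**Figure D2:**
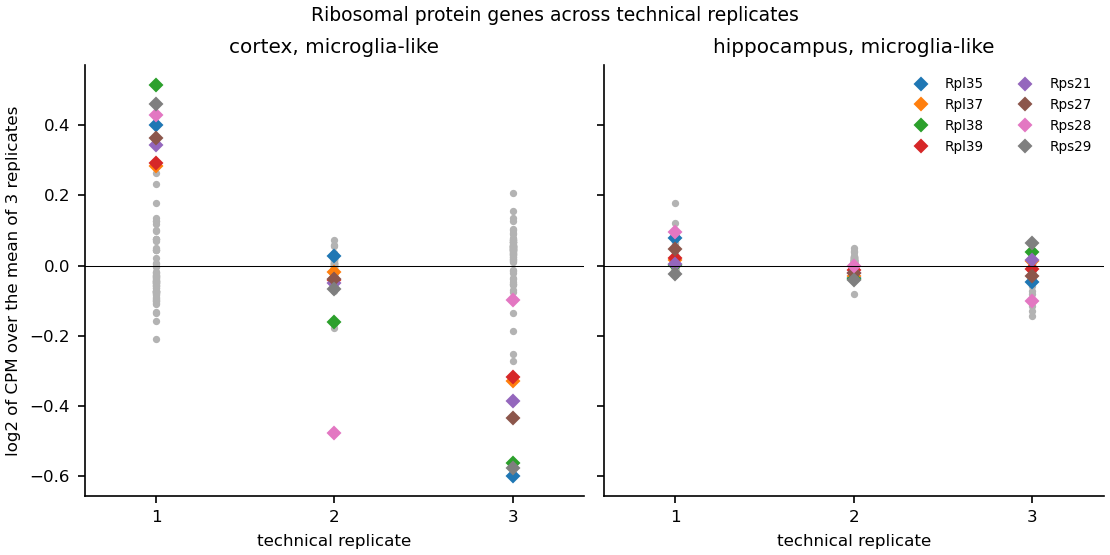
The log2 of each member's CPM over its mean of the 3 technical replicates (y axis) for each replicate (x axis) in microglia-like cells of the cortex (left) and the hippocampus (right), for the members with at least 1000 UMIs. Coloured diamonds mark the 8 members that differed at least 1.5-fold in the cortex, with replicate 1 above the mean for each of them, and grey points mark the other members.

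To compare the makeup of the ribosomal protein mRNA pool, each member was given as its percent of all ribosomal protein UMIs of a class, and the ratio was taken to the microglia-like cells of the same preparation. A member is called higher or lower at a ratio of at least 1.5 or at most 1/1.5.

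On the CPM scale, where every gene can be compared, members followed the total share of their class. Between endothelial-like and microglia-like cells 10 of 81 members in the cortex and 11 of 81 in the hippocampus passed 1.5-fold, against 63.7% and 63% of all genes tested, so far fewer members than genes in general differed between these classes. Among genes with at least 1000 UMIs, 10 of 80 members passed in each preparation, against 57.3% and 57.1% of genes. Between astrocyte-like and microglia-like cells 80 of 82 and 78 of 81 passed (all genes 69.3% and 68.8%), of which 79 and 78 were lower in astrocyte-like cells. Between monocyte-like and microglia-like cells 71 of 82 and 79 of 81 passed (61.5% and 60.5%), 70 and 78 of them higher in monocyte-like cells. For neuron-like cells the counts were 39 of 80 and 39 of 81 (72% and 72.6%), and for oligodendrocyte-like cells 69 of 81, each of them lower (70%).

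In T/NK-like cells 80 of 81 members passed, all of them higher (all genes 63.9%), and in erythroid-like cells 80 of 80 passed, all of them lower (91.3%). Pericyte-like cells had 41 of 80 and 59 of 81 (63.1% and 62.4%), and OPC-like cells 19 of 80 and 23 of 81 (68.7% and 69.1%). Macrophage-like cells had 27 of 81 in the cortex and 6 of 81 in the hippocampus (55.8% and 49%). Fibroblast-like cells had 11 and 40 of 80 (63.9% and 63.6%), VSMC-like cells 9 and 7 of 80 (66.3% and 67%), ependymal-like cells 23 of 80 (72%) and epithelial-like cells 38 of 81 (77.8%). In the cortex the counts were highest in T/NK-like, erythroid-like, astrocyte-like and monocyte-like cells, the classes whose total share lay farthest from that of microglia-like cells.

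Within the pool some members kept their place and as many did not. The part is defined over the members alone, so no background over all genes can be given for it. Over 23 class comparisons 41 of the 82 members with UMIs passed the 1.5-fold in none, 41 passed it in at least 1, and 5 of these passed in both directions in different classes. Between endothelial-like and microglia-like cells 8 members passed in the cortex and 11 in the hippocampus. Rpl38, Rpl41 and Rps27l were higher and Rpl10, Rpl12, Rplp1 and Rps29 lower in both preparations. At 2-fold these counts were 1 and 3.

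Among small-subunit members, Rps29 held 7.42%, 5.42% and 3.83% of the pool in microglia-like cells of the cortex and 5.42%, 5.38% and 5.85% in those of the hippocampus. In macrophage-like cells it held 11.6%, 7.68% and 5.22% in the cortex and 8.28%, 7.99% and 9.28% in the hippocampus, 1.51 times the microglia-like value in the latter. It was lower than in microglia-like cells in 9 of 11 classes of the cortex and 9 of 12 of the hippocampus. OPC-like cells had the smallest part, 2.57% ± 0.952 and 2.37% ± 0.0864, or 0.460 and 0.428 times the microglia-like value. Macrophage-like and then microglia-like cells had the largest part of Rps29 in both preparations, and in the hippocampus their replicates lay above those of every other class. In the cortex the replicates of OPC-like cells reached from 1.74% to 3.64% and those of microglia-like cells from 3.83% to 7.42%, and within each replicate the ratio stayed between 0.454 and 0.492.

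Rps26, a protein at the mRNA exit of the small subunit, held 1.45%, 1.54% and 1.52% of the pool in OPC-like cells of the cortex and 1.75%, 1.75% and 1.70% in those of the hippocampus. In neuron-like cells it held 1.42% ± 0.0607 and 1.36% ± 0.0108, and in microglia-like cells 0.741% ± 0.0611 and 0.807% ± 0.0130. OPC-like cells were thus 2.04 and 2.15 times and neuron-like cells 1.92 and 1.69 times the microglia-like value, with no overlap of replicates, and no other class passed the 1.5-fold for Rps26. Within these classes of the hippocampus the cells were not alike. The Gpr17-led OPC-like cells had 1.82% and the Pdgfra-led ones 1.32%, 2.25 and 1.63 times the microglia-like value. The Igfbpl1-led and the Dlx-led neuron-like cells had 1.44% and 1.72%, but the Reln-led ones had 0.795%, 0.985 times the microglia-like value.

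Rps2, a protein near the mRNA entry channel, was also highest in OPC-like cells, with 1.23%, 1.68% and 1.85% in the cortex and 1.74%, 1.81% and 1.93% in the hippocampus. These were 2.22 and 2.15 times the microglia-like values of 0.737% ± 0.115 and 0.849% ± 0.0245. Rps27 went the opposite way in the same class, at 0.537 and 0.569 times the microglia-like value. In the hippocampus the Gpr17-led and Pdgfra-led cells of this class had 2.24 and 1.78 times the microglia-like value for Rps2, 0.555 and 0.621 times for Rps27 and 0.420 and 0.463 times for Rps29, so the direction was that of the class in both.

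Rpsa, which is also known as the laminin receptor, held 1.99%, 2.07% and 2.10% of the pool in oligodendrocyte-like cells of the hippocampus, 2.31 times its 0.887% ± 0.0115 in microglia-like cells. OPC-like cells had 1.63% ± 0.132 and 1.86% ± 0.0452, monocyte-like cells 1.68% ± 0.194 and 1.68% ± 0.173, and neuron-like cells 1.57% ± 0.171 and 1.63% ± 0.0396. T/NK-like cells of the cortex had 1.68% ± 0.135. Endothelial-like cells, at 0.884% ± 0.0465 and 0.963% ± 0.0336, were near the microglia-like level. Rps28 passed the 1.5-fold in no class, although its level moved with the replicates of the cortex.

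Among large-subunit members, Rpl38 stood out for endothelial-like cells. It held 4.49%, 3.04% and 2.37% of their pool in the cortex and 3.33%, 3.35% and 3.44% in the hippocampus, against 1.20%, 0.790% and 0.603% and 1.06%, 1.04% and 1.11% in microglia-like cells. The lowest endothelial-like replicate lay above the highest microglia-like one in both preparations. The ratio was 3.85 in the cortex, from 3.74 to 3.94 within replicates, and 3.16 in the hippocampus, from 3.11 to 3.23. Ependymal-like cells of the hippocampus had 3.11% ± 0.152, 2.91 times the microglia-like value (2.93 without the shared barcodes), while the mural classes, pericyte-like and VSMC-like cells, had 1.23% to 1.48% over both preparations. Rpl38 was higher than in microglia-like cells in 8 of 11 classes of the cortex and 8 of 12 of the hippocampus, and outside endothelial-like and ependymal-like cells the ratio was at most 1.76.

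Rpl31, which lies at the exit of the nascent chain tunnel, was highest in astrocyte-like cells. It held 0.715%, 0.636% and 0.647% of the pool in the cortex and 0.612%, 0.650% and 0.647% in the hippocampus, 2.06 and 2.06 times the microglia-like values of 0.323% ± 0.0169 and 0.309% ± 0.00182. The call was made in 2 of 11 classes of the cortex and 8 of 12 of the hippocampus.

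Rpl41, whose protein is the shortest of the ribosome, was chosen after its values were seen, as the rule for named genes left it out. It was higher than in microglia-like cells in 7 of 11 classes of the cortex and 7 of 12 of the hippocampus. In epithelial-like cells of the hippocampus Rpl41 held 5.25%, 5.03% and 4.97% of the pool, 3.42 times the 1.49% ± 0.103 of microglia-like cells, and 3.53 times without the shared barcodes. The gene has a nearly identical listed copy, Gm10076 (99.5% identity), with 61057 UMIs in the cortex and 13652 in the hippocampus against 130278 and 179227 for Rpl41, and with copies added the ratio was 3.43.

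Rpl24 and Rps12 were likewise chosen after their values were seen. Rpl24, a large-subunit protein at the bridge to the small subunit, was higher than in microglia-like cells in 5 of 11 and 7 of 12 classes, with 1.45% ± 0.0322 and 1.33% ± 0.0321 in astrocyte-like against 0.778% ± 0.00728 and 0.808% ± 0.0131 in microglia-like cells. Rps12 was lower in 4 of 11 and 5 of 12 classes, with 1.10% ± 0.0340 and 1.13% ± 0.00229 in astrocyte-like against 1.71% ± 0.0469 and 1.80% ± 0.0298 in microglia-like cells. Both were apart from the microglia-like replicates in each preparation.

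The stalk protein gene Rplp1 was lowest in neuron-like cells. It held 1.18%, 1.40% and 1.67% of their pool in the cortex and 1.58%, 1.56% and 1.46% in the hippocampus, against 2.65%, 2.90% and 3.28% and 3.61%, 3.61% and 3.52% in microglia-like cells. The replicates of the classes did not overlap, and the ratios were 0.485 and 0.429. Macrophage-like cells had the largest part, 3.09% ± 0.210 and 4.00% ± 0.0884. Rplp1 was lower than in microglia-like cells at 1.5-fold in 4 of 11 and 7 of 12 classes and higher in none.

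**Figure D3:**
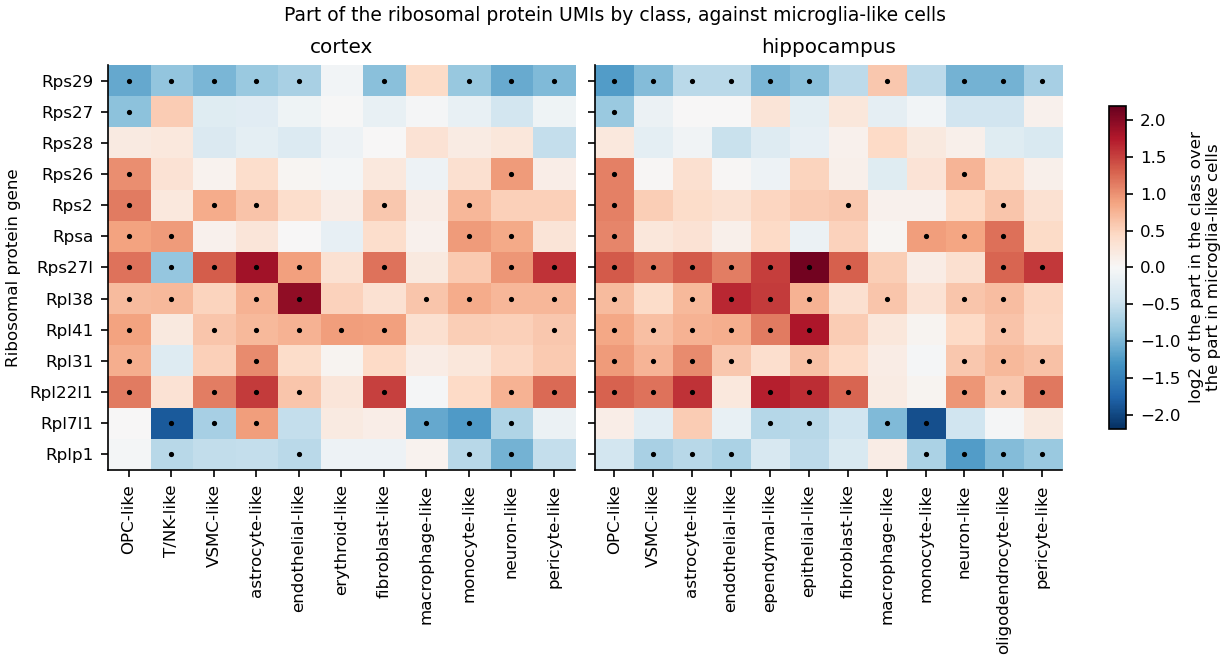
Ratio of each member's part of the ribosomal protein UMIs in a class (x axis) to its part in microglia-like cells of the same preparation, as log2 on a colour scale, for the members that varied most over classes and Rpl41 (y axis), in the cortex (left) and the hippocampus (right). Dots mark ratios of at least 1.5-fold, such as Rpl38 in endothelial-like cells (3.85 and 3.16 times) and Rps29 in OPC-like cells (0.460 and 0.428 times).

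Paralogue use was measured as the UMIs of the less used gene as a percent of the UMIs of the pair. Rpl22 binds RNA and is dispensable for the ribosome, and Rpl22l1 can replace it. In microglia-like cells Rpl22l1 made up 21.9%, 23.5% and 22.7% of the pair in the cortex and 21.4%, 20.4% and 20.8% in the hippocampus. In astrocyte-like cells it made up 43.1%, 48.8% and 46.0% in the cortex and 45.4%, 44.8% and 46.3% in the hippocampus. The classes were far apart in both preparations, and within the astrocyte-like cells the pair was close to even use.

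In the hippocampus epithelial-like cells alone had a higher mean than astrocyte-like cells, at 48.4% ± 2.87 of the Rpl22 pair, and their replicates overlapped. Pooled over replicates the epithelial-like value was 48.7%, and 48.1% without the shared barcodes. In the 621 shallow and the 202 deeper epithelial-like cells it was 53.3% and 48.1%. In the cortex fibroblast-like cells were at 46.0% ± 3.63. OPC-like cells had 40.0% ± 4.04 and 43.2% ± 1.47, and macrophage-like cells 21.3% ± 4.42 and 20.3% ± 2.81, next to microglia-like cells. Endothelial-like cells had 26.6%, 27.8% and 27.1% in the cortex, 4.48 percentage points ± 0.220 above microglia-like cells, and 21.4%, 20.6% and 21.5% in the hippocampus, where the difference of 0.317 ± 0.352 was within the spread of the replicates. Among the neuron-like clusters of the hippocampus, Rpl22l1 made up 68.4% of the pair in the Reln-led cells, 30.8% in the Igfbpl1-led and 15.8% in the Dlx-led ones. In the cortex it made up 37.4% in the Igfbpl1-led and 22.8% in the Dlx-led cells. As part of the whole pool Rpl22l1 was higher than in microglia-like cells in 7 of 11 and 9 of 12 classes.

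Rps27l, a paralogue of Rps27 that p53 is known to induce, made up 5.44%, 6.63% and 8.38% of its pair in microglia-like cells of the cortex and 7.48%, 7.94% and 7.77% in those of the hippocampus. Endothelial-like cells had 10.1%, 12.4% and 16.1%, and 14.9%, 15.2% and 15.9%. The differences were 6.04 percentage points ± 1.58 and 7.59 ± 0.432. In the cortex both classes moved with the replicates, as Rps27 itself did, and the lowest endothelial-like value still lay above the highest microglia-like one.

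Astrocyte-like cells used Rps27l at 23.6% ± 4.18 and 17.5% ± 0.317, OPC-like cells at 23.0% ± 6.04 and 27.3% ± 0.435 (27.5% in the Gpr17-led and 27.4% in the Pdgfra-led cells of the hippocampus), and epithelial-like cells of the hippocampus at 29.99% ± 1.41 (pooled over replicates 29.9%, and 28.9% without the shared barcodes). The 621 shallow epithelial-like cells had 38.5% and the 202 deeper ones 29.0%, so the pooled value lay near that of the deeper cells. T/NK-like cells of the cortex were lowest, with 2.57%, 2.58% and 2.71%. As part of the whole pool, in which Rps27 is 1 of 83 members, Rps27l held 0.511% ± 0.0273 in astrocyte-like against 0.142% ± 0.00219 in microglia-like cells of the cortex (3.59 times) and 0.382% ± 0.00714 against 0.149% ± 0.00168 in the hippocampus (2.56 times). It held 0.653% ± 0.0423 in epithelial-like cells (4.37 times, and 4.39 without the shared barcodes) and 0.0792% ± 0.0123 in T/NK-like cells (0.557 times).

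Rpl7l1, a nucleolar relative of Rpl7 that acts in large-subunit assembly, made up 13.6%, 15.9% and 15.5% of its pair in astrocyte-like cells of the cortex and 13.8%, 13.9% and 15.3% in those of the hippocampus. Microglia-like cells had 8.62% ± 0.116 and 10.3% ± 0.279, endothelial-like cells 5.59% ± 0.361 and 8.30% ± 0.506, and monocyte-like cells 4.02% ± 0.350 and 3.22% ± 0.343. Of the classes just given, astrocyte-like cells were highest and monocyte-like cells lowest. As part of the whole pool Rpl7l1 was also called lower in T/NK-like cells of the cortex. The order of astrocyte-like, microglia-like, endothelial-like and monocyte-like cells was the same in both preparations, with no overlap of replicates between neighbours. The monocyte-like class held different cells in the preparations, however.

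Rpl36al does not match the member rule but pairs with the member Rpl36a. It made up 28.6%, 27.3% and 25.6% of the pair in microglia-like cells of the cortex and 39.2%, 39.9% and 41.0% in those of the hippocampus. Oligodendrocyte-like cells had 51.7% ± 1.05, OPC-like cells 31.1% ± 1.84 and 48.3% ± 0.204, and neuron-like cells 16.2% ± 2.13 and 29.3% ± 1.29. The neuron-like clusters found in both preparations, which need not hold like cells, had 16.8% against 27.4% (Igfbpl1-led) and 15.4% against 32.2% (Dlx-led). In each of these classes found in both preparations the hippocampus was higher, with no overlap of replicates, and region, age, preparation and annotation cannot be told apart for it.

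The remaining pairs were used nearly one-sidedly. Rpl39l, best known from the testis, had 130 UMIs in microglia-like cells of the cortex, 0.174% of the pair (exact Clopper-Pearson 95% interval 0.145% to 0.206%), and 263 in those of the hippocampus, 0.342% (0.302% to 0.386%). Endothelial-like cells had 67 UMIs (0.168%) and 24 (0.127%), and neuron-like cells had 0 and 1. Over all cells kept the percent was 0.141% (0.122% to 0.161%) and 0.224% (0.201% to 0.249%).

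Rpl3l, the form of Rpl3 known from heart and skeletal muscle, had 28 UMIs among all cells kept of the cortex, 0.0332% of its pair (0.0221% to 0.0480%), and 16 in the hippocampus, 0.0172% (0.00985% to 0.0280%). Monocyte-like cells held 12 and 4 of them, 0.576% (0.298% to 1.00%) and 0.293% (0.0800% to 0.749%) of the pair, and astrocyte-like cells 9 and 8. Microglia-like cells had 1 UMI in the cortex and 0 of 36679 in the hippocampus, which allows a share of up to 0.00818% when the limit is set at 3 counts of the total. The percent in monocyte-like cells of the cortex was 1.25% in replicate 1 and 0.195% and 0.396% in the others.

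Rpl10l, a retrogene that replaces the X-linked Rpl10 in male germ cells, had 0 UMIs of 47372 for the pair in microglia-like cells of the cortex, which allows up to 0.00633% by the same limit. Over all cells kept the limits were 0.00334% in the cortex and 0.00289% in the hippocampus. Rps4l is listed for neither preparation, so the use of Rps4x and Rps4l was not analysed here.

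**Figure D4:**
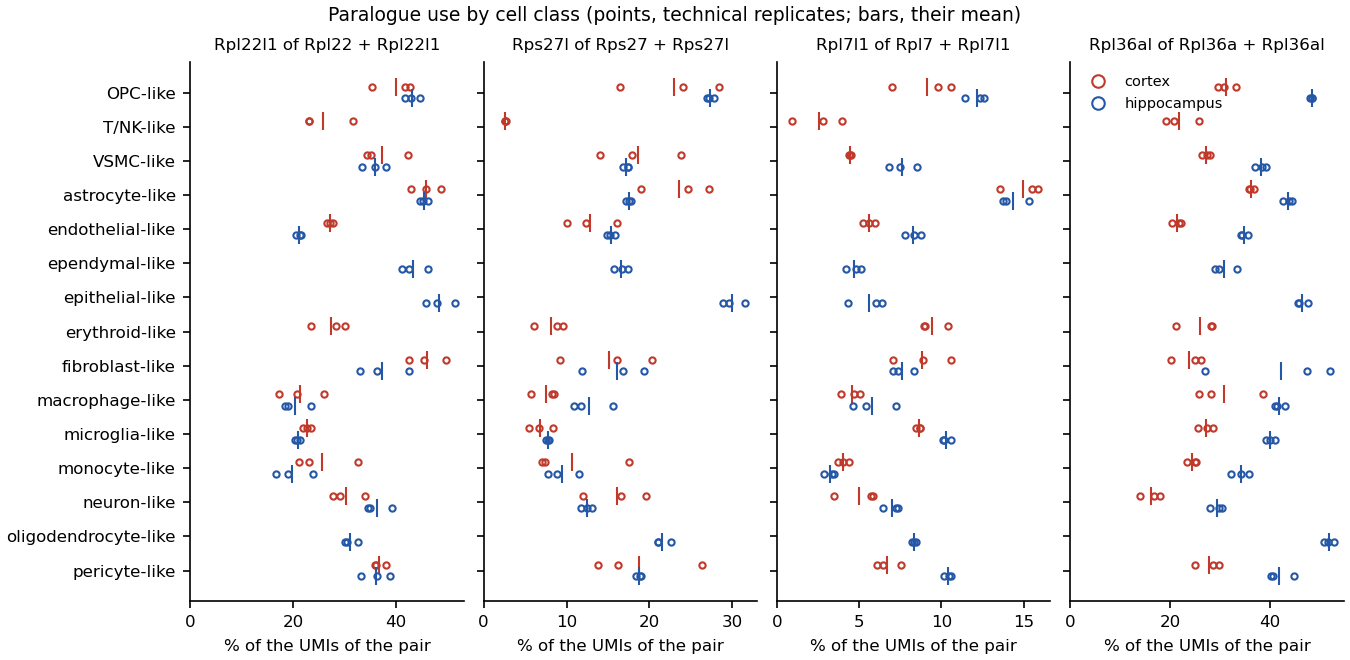
UMIs of the less used gene as a percent of the UMIs of its pair (x axis, a panel per pair) in each cell class (y axis), with open circles for technical replicates and vertical bars for their means, red for the cortex and blue for the hippocampus. Rpl22l1 is near 21% to 23% in microglia-like and near 46% in astrocyte-like cells, and Rpl36al is higher in the hippocampus than in the cortex in microglia-like cells (40.0% against 27.1%).

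Between the preparations, members were compared as the log2 ratio of CPM, hippocampus over cortex, from UMIs summed over the cells of a class, for genes with at least 10 UMIs in both together and some in each. The share in microglia-like cells differed by -1.56 percentage points ± 0.256, which here is the root mean square of the SDs of the preparations (0.354 in the cortex and 0.0738 in the hippocampus). Of 81 members that could be compared in microglia-like cells (Rpl3l and Rpl10l could not), 2 were at least 1.5-fold higher in the hippocampus, against 15.2% of all genes tested, and 2 at least 1.5-fold lower, against 5.64%. At 2-fold 2 members remained in all, and no share of all genes was taken at that fold. In endothelial-like cells 1 was higher and 6 were lower (all genes 13.5% and 8.91%), and in astrocyte-like cells, where Rpl39l had too few UMIs and Rpl3l enough, 1 was higher and 2 were lower of 81 (19.1% and 10.3%). On this scale members past 1.5-fold were less frequent than all genes tested in each class. The members are abundant, however, and against genes with at least 1000 UMIs this did not hold in every class: 3 of 80 members passed in either direction in microglia-like (5.1% of genes), 6 of 80 in endothelial-like (7.44%) and 3 of 80 in astrocyte-like cells (15.1%). In endothelial-like cells 5 of these 80 were lower, against 3.2% of genes, and in microglia-like cells 2 of 80, against 2.31%. The endothelial-like count depended on the scale: when libraries were scaled by the median of ratios over genes, an alternative chosen for this class after seeing the data, 1 member was higher and 24 were lower (all genes 9.57% and 11.8%), so that lower members were then more frequent than genes in general. The same scaling gave 2 higher and 3 lower in microglia-like (12.4% and 6.99%) and 1 higher and 3 lower in astrocyte-like cells (15.3% and 13.2%).

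Small differences went one way. In microglia-like cells 73 of 81 members were lower in the hippocampus, in endothelial-like cells 76 and in astrocyte-like cells 69. The technical replicates of the preparations did not overlap for 60 lower and 3 higher members in microglia-like cells, against 12.8% and 33.7% of all genes tested. In endothelial-like cells the counts were 67 and 2 (13.3% and 33.8%) and in astrocyte-like cells 43 and 4 (19.7% and 30.1%). Among genes with at least 1000 UMIs the lower ones came to 17.3%, 18% and 33.2% in the 3 classes, beside 60, 66 and 43 of 80 members. The median log2 ratio of the members was -0.25, -0.35 and -0.16 in the 3 classes. The median of all genes tested was 0.13, 0.14 and 0.11 on the same scale and 0.02, -0.01 and 0.01 when libraries were scaled by the median of ratios. On that second scale the medians of the members were -0.36, -0.50 and -0.26, and 76, 78 and 74 members were lower. Haemoglobin UMIs were higher in the cortex in all 3 classes, from 0.0813% to 0.443% of UMIs there and 0.00212% to 0.0691% in the hippocampus, and their part was not tested.

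Rpl13a, a large-subunit protein that is also known from the GAIT complex, which silences inflammatory mRNAs, differed most. It had 199, 229 and 225 CPM in microglia-like cells of the cortex and 1274, 1281 and 1256 CPM in those of the hippocampus, a log2 ratio of 2.54 (95% interval 2.51 to 2.58). In endothelial-like cells it had 216, 247 and 231 against 1266, 1275 and 1261 CPM, and in astrocyte-like cells 49.4, 60.8 and 55.2 against 384, 380 and 399 CPM, with log2 ratios of 2.46 and 2.81. The replicates were far apart in every class. By the exons of GENCODE M21, Rpl13a (chr7:45125558-45128761, minus strand, GRCm38) was the 1 member of the 83 whose exons overlap another listed feature on the same strand. This was Gm45713, over 621 of 2114 exonic bases (29.4%). Overlaps in the annotations behind the counts were not looked at. Gm45713 had 1 UMI in the cortex and 524 in the hippocampus, and the part of this overlap and of the annotations in the difference was not tested.

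Rpl15, also of the large subunit, went the other way. It had 991, 1041 and 1078 CPM in microglia-like cells of the cortex and 400, 334 and 326 in those of the hippocampus, a log2 ratio of -1.55 (-1.58 to -1.53). Endothelial-like and astrocyte-like cells had log2 ratios of -1.66 and -1.62. A nearly identical copy of Rpl15, Gm10020 (99.7% identity), is listed for the hippocampus alone and had 692 UMIs there against 39358 for Rpl15. With copies added the log2 ratio in microglia-like cells was -1.53. This sum leaves out reads counted for neither feature, so the part of the copy in the difference was not tested.

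Rpl39l was the other member past 1.5-fold higher in microglia-like cells, at 3.53, 3.51 and 4.21 CPM in the cortex and 6.90, 5.41 and 7.06 CPM in the hippocampus (log2 ratio 0.78, 0.47 to 1.09), but it was lower in endothelial-like cells (-0.79, -1.53 to -0.10). Rpl35 was lower in microglia-like cells by -0.59 on the log2 scale, yet its replicates, 1255, 968 and 626 CPM in the cortex and 668, 616 and 612 in the hippocampus, overlapped. Rpl35 is among the members whose cortex replicates differed.

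Of the members next in order, these were lower in the hippocampus by less than 1.5-fold in microglia-like cells, with log2 ratios of -0.49 for Rps14, -0.44 for Rps6, -0.43 for Rps23, -0.41 for Rpl13, -0.41 for Rps27 and -0.40 for Rps25. Rps6, the substrate of the S6 kinases, had 910, 971 and 990 CPM in the cortex and 706, 707 and 700.0 in the hippocampus. Rpl27, of the same part of the order, was higher, with 327, 329 and 339 CPM in the cortex and 483, 447 and 402 in the hippocampus (log2 ratio 0.42). Replicates were apart for these members other than Rps27.

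In endothelial-like cells the members past 1.5-fold lower were Rpl15, Rpl39l, Rpl22l1, Rplp0, Rpl35 and Rps6. Rpl22l1 had 366, 364 and 371 CPM in the cortex and 224, 202 and 223 in the hippocampus (log2 ratio -0.76), with a log2 ratio of -0.14 in astrocyte-like cells. Rplp0, the base of the stalk, had 1171, 1290 and 1330 CPM in the cortex and 780, 772 and 741 in the hippocampus (-0.72). Both had replicates apart. In astrocyte-like cells Rpl15 and Rpl23a (-0.67) were lower. Rplp0 and Rpl23a were named after their values were seen, as members past the fold. Each has a nearly identical copy that is listed for the hippocampus alone. Gm8730 (98.7% identity) had 1095 UMIs there against 91642 for Rplp0, and Rpl23a-ps3 (99.8%) had 1215 against 43182 for Rpl23a. The part of these copies in the differences was not tested.

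**Figure D5:**
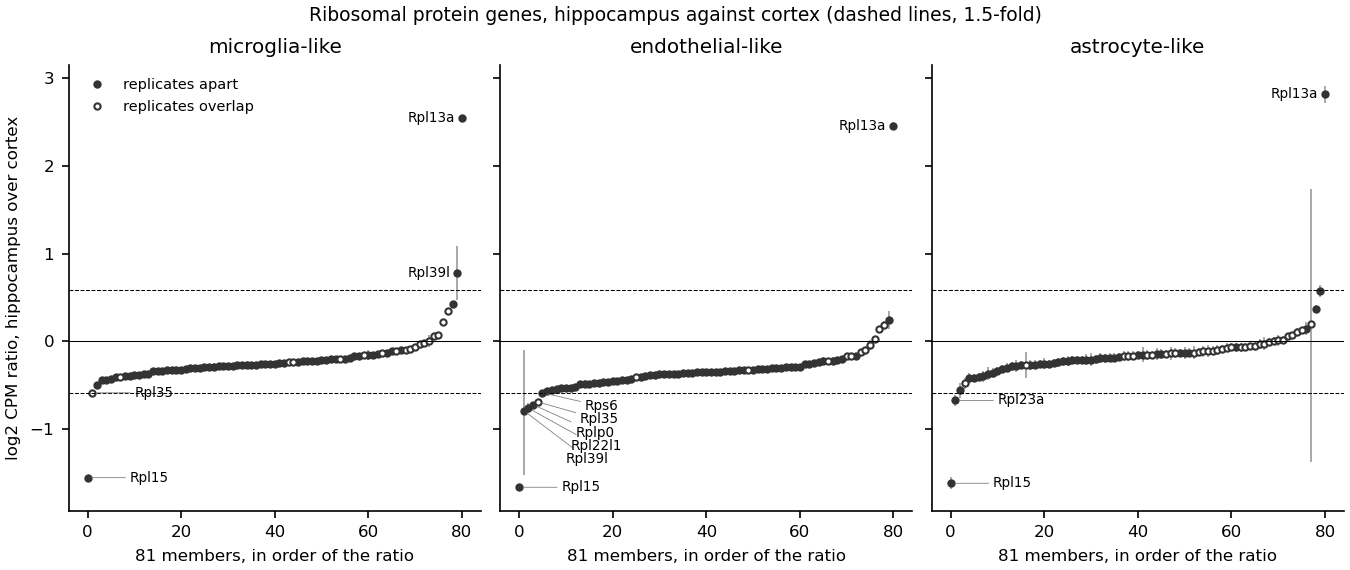
The log2 ratio of CPM, hippocampus over cortex (y axis), for the 81 members compared in 3 classes (microglia-like, endothelial-like, astrocyte-like), in order of the ratio (x axis), with bars for the 95% counting interval and dashed lines at 1.5-fold. Filled points have technical replicates that do not overlap between the preparations, most members lie below 0, and Rpl13a (2.54, 2.46 and 2.81) and Rpl15 (-1.55, -1.66 and -1.62) lie apart from the rest.

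Features at least 95% identical to a member over at least 150 bases were listed 23 times for the cortex and 39 times for the hippocampus, 2 and 18 of them for that preparation alone. Their UMIs came to 1.04% and 0.537% of the members' UMIs, but they were uneven over members. Copies came to 46.9% of the UMIs of Rpl41 in the cortex and 7.62% in the hippocampus, to 6.98% and 3.44% for Rpl27, and to less than 5% for every other member, so the level of Rpl41 is uncertain by far more than the total shows.

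Most other lists of translation genes kept the same order over T/NK-like, microglia-like and astrocyte-like cells. Elongation factors (7 genes) held 1.83% of UMIs in T/NK-like, 0.799% in microglia-like and 0.244% in astrocyte-like cells of the cortex. Initiation factors and poly(A) binding protein (12 genes) held 0.481%, 0.333% and 0.275%, nascent chain factors (3 genes) 0.220%, 0.0931% and 0.0697%, and ribosome biogenesis factors (16 genes) 0.211%, 0.112% and 0.0672%. The 78 mitochondrial ribosomal protein genes did not keep this order, with 0.466%, 0.366% and 0.566%, so astrocyte-like cells were lowest for the cytosolic and highest of these 3 classes for the mitochondrial ribosome. In the hippocampus the mitochondrial set held 0.351% in microglia-like and 0.433% in astrocyte-like cells.

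Between the preparations, in microglia-like cells, 0 of 7 elongation factors (median log2 ratio -0.12), 0 of 12 initiation factors (0.01), 0 of 16 biogenesis factors (0.09) and 0 of 8 immediate early genes (0.11) passed 1.5-fold. Of all genes tested 15.2% were higher and 5.64% lower, and among genes with at least 1000 UMIs 5.1% passed in either direction. Of the 3 nascent chain factors Nacad was higher, and of 78 mitochondrial ribosomal protein genes 1, Mrpl53, was lower (median -0.07). The 4 haemoglobin genes were lower in the hippocampus (median -6.79). In endothelial-like cells Nacad, Mrpl53 and the haemoglobin genes passed in the same directions, with Fos, Fosb and Polr1b higher besides (all genes 13.5% higher and 8.91% lower). In astrocyte-like cells Nacad, Eef1a2, Eif4b and Fosb were higher and Dusp1 and the haemoglobin genes lower (all genes 19.1% higher and 10.3% lower). There 14 of 78 mitochondrial ribosomal protein genes were lower and 0 higher (median -0.34), beside 10.3% of all genes tested that were lower.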

How the data were processed

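Per the labels, the authors aligned the reads to mm10 and counted UMIs per gene with Cell Ranger 5.0.1, and deposited raw count matrices, whose headers name versions 3.0.1 (cortex) and 3.1.0 (hippocampus). No values were normalised before deposit. The members and gene lists were chosen with earlier results of these data known. Genes were joined by Ensembl identifier, under the symbols of the cortex. Cells needed 250 to 6000 genes and a mitochondrial share below 25%. Seurat 5.3.0 (R 4.3.3) integrated the 6 libraries and clustered them at resolution 0.5 on 30 dimensions and 2000 variable genes without the members. A cluster was named from at least 3 markers present in at least 20% of its cells and at least 2-fold higher than in the others. Doublets were called with Scrublet in scanpy 1.11.5 (0.8% per 1000 barcodes) and kept. Shares, CPM and ratios came from UMIs summed per class and library, intervals are exact binomial at 95%, and the limit for a count of 0 is 3 counts of the total. The clusters inside the OPC-like, monocyte-like, neuron-like and epithelial-like classes were looked at after seeing the data. Named genes were the members of the paralogue pairs, the 6 members with the most and the 6 with the fewest UMIs, the 12 with the widest range of part over classes, the 12 with the largest region ratio in microglia-like cells, and the lists. Copies were found by aligning GENCODE M21 transcripts, and exon overlaps and transcript lengths were taken from the same annotation. The counting steps were tested on simulated data. Results for some genes are not reported here.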

Additional observations from a re-analysis of the deposited data

How the results depend on the processing

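Of the results recomputed under an alternative, 174 stayed within 1 replicate SD of the reported value or, for counts, within 1.5-fold, and 29 moved further. No difference in percentage points changed sign. The endothelial-like to microglia-like ratio of the hippocampus did fall below 1 under some alternatives, to 0.991 and 0.995. The signs of single members past the fold were not compared under the alternatives. No paired analysis was possible because the results come from no test. With mitochondrial and haemoglobin UMIs left out of the total, the microglia-like share was 11.3% in the cortex and 9.49% in the hippocampus, the difference between the deepest and the shallowest group of microglia-like cells 1.99 and 2.34 percentage points, and the endothelial-like to microglia-like ratio 1.12 and 1.03. With cells classed by their own marker UMIs, the hippocampus share was 9.26%, the depth difference 1.28 and 1.64, and the hippocampus ratio 0.995. With the mean of per-cell shares, the hippocampus share was 8.94%, its depth difference 2.02, and the ratio 1.05 and 1.00. With the members kept in the clustering, the hippocampus share was 9.25%, the depth difference 1.37 and 1.69, and the hippocampus ratio 1.00. At resolution 0.2 the hippocampus share was 9.26%, the depth difference 1.35 and 1.67, and the ratio 1.05 and 0.991. With the preparations clustered separately, the depth difference in the cortex was 1.40, the ratio 1.14 and the Rpl22l1 difference between endothelial-like and microglia-like cells 4.09 percentage points. The cause of these moves was not tested. At 2-fold, fewer members pass by construction: 1 and 3 in the endothelial-like pool and 2 between the preparations in microglia-like cells. No share of all genes at 2-fold was taken to set beside these counts. Adding nearly identical features, chosen after seeing the data, moved none of the results it was tried on by this measure. It adds counted UMIs only, so it does not show the part of reads counted for neither a member nor its copy. The Rpl22l1, Rps27l and depth differences were not recomputed with these features added. With 1 biological sample per preparation, depth limits the rare paralogues, and no count here separates region from age or annotation.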
